A study of Mus musculus with 8 samples.

Results

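The 55 genes described here encode enzymes, and a few obligate partner subunits, that place or remove methyl and acetyl groups on histones or methyl groups on DNA, leaving out LSD1 itself. They were chosen by name from what their products do, but with earlier results of these data known. All 55 were among the 55335 genes of the count table. Their RNA was compared between wildtype and LSD1-deficient CD8+ tumor-infiltrating lymphocytes (TILs). The question was how the RNA of these enzymes stood, in bulk, in sorted T cells that lack LSD1. The TILs were CD8+CD44+PD-1+ cells, that is, antigen-experienced cells carrying the inhibitory receptor PD-1, sorted from subcutaneous tumors of MC38, a mouse colon carcinoma line. WT samples came from Lsd1f/f mice, which carry the floxed gene without Cre, and KO samples from Cd4-Cre+Lsd1f/f mice, in which the Cd4 promoter drives Cre in developing T cells, so that CD4+ and CD8+ T cells both lose the gene before the tumor exists. Both groups were C57BL/6 mice of 6 to 10 weeks carrying the same floxed alleles and the same tumor, with 4 samples each. Each WT sample pooled 2 mice and each KO sample held 1 mouse, so the spread between WT samples is that of pools. The cells were taken on day 18 after implantation per the study's methods (day 14 in its design text). The table's columns could be tied to a group but not to a replicate number, so the WT samples are called S1 to S4 and the KO samples S5 to S8.

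Chromatin enzymes work in opposing pairs. Methyltransferases and demethylases set methylation at H3K4, a mark of active promoters and enhancers, and at H3K9 and H3K27, marks of silent chromatin. Acetyltransferases open chromatin and deacetylases close it, while DNA methyltransferases and TET enzymes write and oxidize 5-methylcytosine. In CD8+ T cells, EZH2, DNMT3A and TET2 are known for their part in the choice between effector, memory and exhausted states, and LSD1 removes methyl groups from H3K4 as part of the CoREST corepressor.

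The start sites of the enzymes with the clearest changes are shown first, as the sequences from which these genes are transcribed. RefSeq windows on GRCm38.p6, running from 250 bases before to 50 bases after a start site, were found for 43 of the 55 genes, in 60 windows. Capitals mark the GC box, GGGCGG or its reverse complement, bound by SP/KLF factors, and the TCF/LEF core, CTTTGA or its reverse complement, bound by TCF1. The windows are those of Ep300 (chr15:81585964-81586263, plus strand), Sirt1 (chr10:63338986-63339285, minus strand), Hdac6 (chrX:7947840-7948139, minus strand) and Kmt2d (chr15:98871156-98871455, minus strand), which were higher in KO samples, and the most upstream of 3 windows of Dnmt3a (chr12:3806730-3807029, plus strand), which was lower.
Ep300: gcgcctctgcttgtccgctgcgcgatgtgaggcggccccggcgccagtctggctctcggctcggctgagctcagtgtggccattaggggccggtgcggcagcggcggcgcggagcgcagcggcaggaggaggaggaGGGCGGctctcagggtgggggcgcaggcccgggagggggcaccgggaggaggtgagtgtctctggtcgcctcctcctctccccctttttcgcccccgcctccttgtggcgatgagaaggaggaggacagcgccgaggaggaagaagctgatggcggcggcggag
Sirt1: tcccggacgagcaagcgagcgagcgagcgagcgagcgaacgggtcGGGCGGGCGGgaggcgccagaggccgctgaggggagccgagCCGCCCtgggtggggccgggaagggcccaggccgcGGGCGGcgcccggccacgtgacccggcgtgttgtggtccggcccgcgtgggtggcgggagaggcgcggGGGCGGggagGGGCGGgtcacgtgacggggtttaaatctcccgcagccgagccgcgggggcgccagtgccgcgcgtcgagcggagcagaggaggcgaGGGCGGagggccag
Hdac6: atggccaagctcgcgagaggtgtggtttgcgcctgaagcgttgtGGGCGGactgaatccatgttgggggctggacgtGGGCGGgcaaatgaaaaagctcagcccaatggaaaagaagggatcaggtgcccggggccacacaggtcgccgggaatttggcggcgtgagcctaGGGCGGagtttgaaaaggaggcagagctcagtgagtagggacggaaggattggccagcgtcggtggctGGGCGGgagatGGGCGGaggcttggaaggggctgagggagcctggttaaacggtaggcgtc
Kmt2d: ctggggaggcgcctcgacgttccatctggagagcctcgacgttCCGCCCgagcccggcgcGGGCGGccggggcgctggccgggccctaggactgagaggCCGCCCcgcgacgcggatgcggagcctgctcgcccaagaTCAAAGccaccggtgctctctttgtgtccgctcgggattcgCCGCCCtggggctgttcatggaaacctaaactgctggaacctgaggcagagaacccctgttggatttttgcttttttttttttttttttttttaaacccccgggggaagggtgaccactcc
Dnmt3a: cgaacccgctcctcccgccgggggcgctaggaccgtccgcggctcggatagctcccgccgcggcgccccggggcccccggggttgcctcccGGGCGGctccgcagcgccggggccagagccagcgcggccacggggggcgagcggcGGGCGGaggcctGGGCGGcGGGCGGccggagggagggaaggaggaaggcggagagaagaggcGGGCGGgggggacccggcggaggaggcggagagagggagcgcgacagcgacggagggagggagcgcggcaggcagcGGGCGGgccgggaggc
Each of these 5 windows held at least 1 GC box, with some boxes overlapping each other as in Sirt1, and the TCF/LEF core was met once, in Kmt2d. The enzymes that passed an adjusted p of 0.05 (below) had 11 windows, from 9 genes. Dnmt3a gave 3 of these windows, and Kdm6b and Kmt2e, which also passed, gave none. Of the 11 windows, 90.9% held a GC box and 9.09% a TCF/LEF core, against 38 and 6 of the 60 windows of all matched enzymes. Of 32851 windows of all genes, 35.7% held a GC box and 5257 (16%) a TCF/LEF core. The median number of CG dinucleotides was 27.5 in enzyme windows and 7 in all windows, and among the 8701 windows with at least 20 of them, 80.9% held a GC box and 6.91% a TCF/LEF core. No entry was found for Hdac3, Kat6a, Kdm2a, Kdm3b, Kdm4b, Kdm5a, Kdm6b, Kmt2b, Kmt2e, Nsd1, Nsd2 and Setd1b.

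The samples held 11657807 to 30295406 counts each, so that 3 counts, the floor used here, were worth 0.106 to 0.25 CPM, a count divided by its sample's scaled total. Kdm1a, the gene that encodes LSD1, stood at 44.6, 47.2, 42.7 and 44.9 CPM in S1 to S4 and at 25.2, 30.5, 32.0 and 34.8 CPM in S5 to S8. It was lower in every KO sample, by 0.55 on the log2 scale (SE 0.14, adjusted p = 0.0163, edgeR), with counts summed over the whole gene, floxed and remaining exons together. Without S2 that p was 0.0578. Markers of CD8+ T cells summed to 3087 to 3952 CPM in all samples, and of these 7 genes Cd44, part of the sort gate, was higher in KO samples (1.81-fold, adjusted p = 0.000107, edgeR) and Cd8b1 lower (log2 fold change -0.39, adjusted p = 0.0158, edgeR). Of 17 myeloid markers, 13 were lower in KO samples at an adjusted p of 0.05 and none was higher. Their summed level ran from 511 to 1545 CPM in WT and from 244 to 359 CPM in KO samples, with none at 0. Of 4 markers of CD4+ and regulatory T cells, 3 were higher (Zbtb7b, Cd40lg and Cd4), with sums of 40.1 to 57.0 and 121 to 155 CPM. Most of these sums was Zbtb7b, with a mean of 44.6 CPM in WT and 102 CPM in KO samples. Cd4 had means of 4.54 and 14.3 CPM, and Foxp3 was not called (adjusted p = 0.37, edgeR). Which cells held the RNA of these markers was not tested. Of 20 proliferation markers, 2 were lower (Mcm2 and Mcm4), with sums of 2029 to 2649 CPM in WT and 1684 to 2190 in KO samples. The part of these marker differences in the results that follow was not tested beyond the covariate fits given last. In bulk RNA fewer cells of a type and less RNA per cell cannot be told apart. By flow cytometry, the study reports a larger share of progenitor cells among CD8+ TILs of KO mice. The share of more differentiated cells was smaller there. The sort gate did not separate these kinds of cell. Words such as higher, lower, rose and fell therefore describe the sorted cells as a whole. The part of that shift in the differences between the groups was not tested.

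Of the 55 enzymes, 54 had enough counts to test. Hdac9, a class IIa deacetylase, did not, with 5 counts in S1, 5 in S7, 4 in S8 and none in the other 5 samples. Under the study's rule, a fold above 1.5 and an adjusted p under 0.01, 4 enzymes rose in LSD1-deficient TILs (Ep300, Kdm6b, Sirt1 and Hdac6), where 2.91% of all 15378 genes tested did. Only the thresholds are the study's. It applied them to DESeq2 with a GC content correction, and edgeR without that correction was used here. Under the same rule 1 enzyme fell (Dnmt3a), against 1.99% of all genes, so that 5 enzymes met it in either direction beside 4.9% of all genes. At an adjusted p under 0.05 with no fold threshold, 10 enzymes were higher, adding Kmt2d, Tet2, Kmt2e, Dnmt3b, Setd7 and Crebbp, beside 6.31% of all genes (18.5% of the enzymes tested). In the lower direction Dnmt3a alone passed, beside 4.98% of all genes (11.3% in either direction). All 4 KO samples lay above all 4 WT samples for 15 enzymes and below them for 2 (Dnmt3a and Prmt5), where 8.99% and 8.28% of all genes did. The median log2 fold change was 0.15 over the 54 enzymes and -0.01 over all genes, with 38 enzymes above 0 and 16 below.

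**Figure D1:**
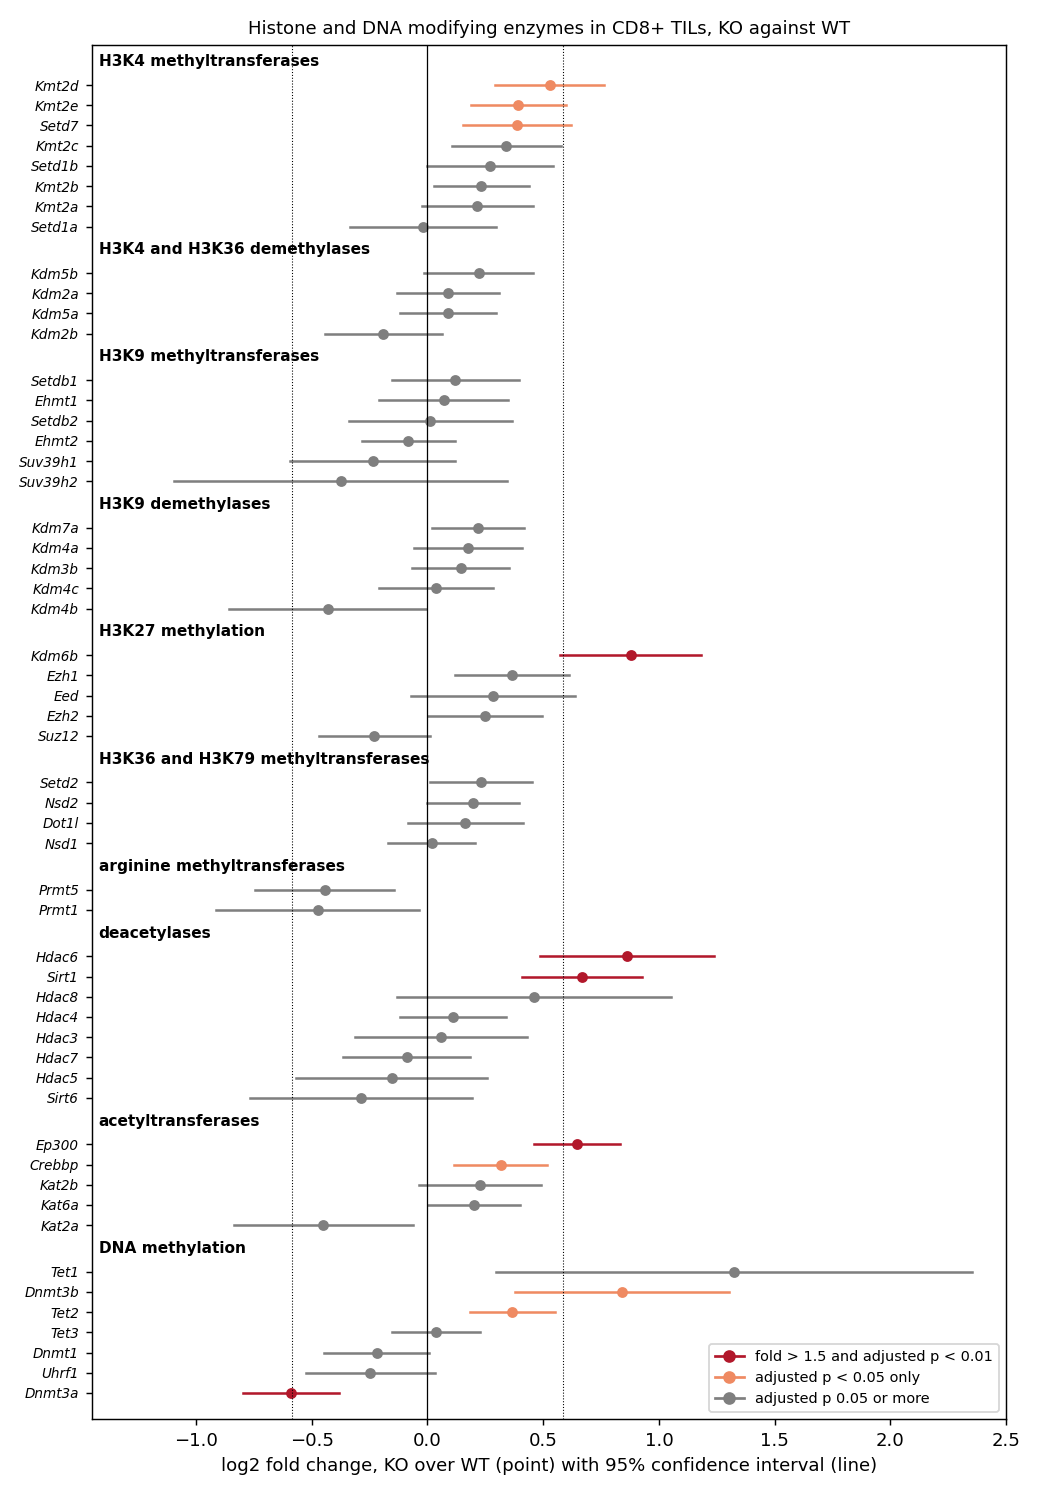
Log2 fold change, KO over WT, of the 54 enzymes tested (points) with 95% confidence intervals from the edgeR standard error (lines), grouped by role; dotted lines mark a fold of 1.5. Kdm6b (0.88), Hdac6 (0.86), Sirt1 (0.67) and Ep300 (0.65) lie to the right and Dnmt3a (-0.59) to the left, while Tet1 has the widest interval (0.29 to 2.35).

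Of the 8 H3K4 methyltransferases, 3 were higher and none lower, and their median log2 fold change of 0.30 was the highest of the roles. All 8 have more than 6000 exon bases, a class in which 12.1% of all genes were higher (below). Kmt2d, which encodes MLL4, a main enzyme of H3K4 monomethylation at enhancers, stood at 1344, 959, 1095 and 891 CPM in WT samples and at 1629, 1521, 1479 and 1558 CPM in KO samples. S1 was the highest WT sample and still lay below the lowest KO sample. The log2 fold change was 0.53 (SE 0.11, adjusted p = 0.0047, edgeR), a 1.44-fold difference and so short of the study's fold. Kmt2e, a relative of the MLL genes whose SET domain lacks clear activity, had 446, 407, 451 and 377 CPM in WT and 584, 569, 574 and 477 CPM in KO samples. The groups did not overlap, although S8 fell close to the WT range, and the log2 fold change was 0.39 (SE 0.10, adjusted p = 0.0139, edgeR). Kmt2e shares 9.31% of its exon bases with Srpk2 on the opposite strand, and because no source used here states whether counting used strand, reads of that overlap cannot be assigned. Setd7, a lysine monomethyltransferase with H3K4 and many non-histone substrates, measured 96.8, 85, 76.2 and 90.7 CPM against 123, 100.3, 121 and 112 CPM. Its groups were close, S1 and S6 lying next to each other, with a log2 fold change of 0.39 (SE 0.11, adjusted p = 0.0308, edgeR). It missed 0.05 without S2 (0.0927), S3 (0.104), S4 (0.0566), S5 (0.0767) or S7 (0.0899), and Kmt2e missed it without S2 (0.0523).

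Kmt2a (MLL1), a writer of H3K4 methylation at Hox and other promoters, was among the most abundant of these RNAs and did not pass. It measured 819, 609, 677 and 569 CPM in WT and 875, 800, 737 and 692 CPM in KO samples. S1 lay above 3 of the KO samples, and the log2 fold change was 0.22, with a 95% interval of -0.03 to 0.46 (adjusted p = 0.264, edgeR). Kmt2c (MLL3), the paralog of Kmt2d, had a log2 fold change of 0.34 with groups that did not overlap and an adjusted p of 0.0596 from edgeR. It passed 0.05 with DESeq2 (0.0251), with no filter on low counts (0.0291) and without S1 (0.0343). Kmt2b, Setd1b and Setd1a gave 0.23, 0.27 and -0.02 with no call. Setd1a shares 51.8% of its exon bases with Gm49388 on the same strand, a gene with 0 counts. Whether reads of that overlap entered the count of Setd1a could not be told here, so its level per length is uncertain. Per exon length, which allows genes to be compared, Kmt2d had the highest level of the group, 53.8 ± 10.03 RPKM in WT and 77.6 ± 3.19 in KO samples (SD, n = 4 each). The summed level of the 8 genes ran from 168 to 223 RPKM in WT and from 233 to 263 in KO samples.

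None of the 4 demethylases of H3K4 and H3K36 passed the test in edgeR or DESeq2, and 0 of them had an unadjusted p under 0.05. The share of all genes at that unadjusted threshold was not computed. It is at least the 11.3% that had an adjusted p under 0.05, so counts at it, here and below, are descriptions only. Kdm5a and Kdm5b, which remove H3K4 trimethylation, had log2 fold changes of 0.09 and 0.22, and Kdm2a and Kdm2b, which act on H3K36, had 0.09 and -0.19. The intervals of these 4 changes together ran from -0.44 to 0.46. Their summed levels overlapped between the groups, at 51.7 ± 3.18 RPKM in WT and 52.6 ± 5.24 in KO samples (SD, n = 4 each).

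The H3K9 enzymes also showed no call in edgeR or DESeq2, with 6 methyltransferases at a median log2 fold change of -0.04 and 5 demethylases at 0.14. At an unadjusted p under 0.05 in edgeR, met by at least 11.3% of all genes, there were 0 methyltransferases and 2 demethylases, Kdm7a higher and Kdm4b lower. Suv39h1, which writes H3K9 trimethylation and is known to silence memory genes in effector CD8+ T cells, measured 30.7, 35.5, 29.3 and 44.2 CPM in WT and 31.4, 35.2, 25.5 and 26.5 CPM in KO samples. The groups overlapped, and the log2 fold change was -0.24 with an interval of -0.59 to 0.12 (adjusted p = 0.437, edgeR). Ehmt2 (G9a), a writer of H3K9 dimethylation with the highest level per length of this group, gave -0.08, and its interval of -0.28 to 0.12 was the narrowest of the 6. Suv39h2 had the widest interval of these 6, from -1.09 to 0.34, at 3.02 to 10.2 CPM, and it shares exon bases with the far more abundant Dclre1c on the opposite strand. Among the demethylases, Kdm7a had KO samples all above WT samples (log2 fold change 0.22, adjusted p = 0.158, edgeR). Kdm4b pointed the other way at -0.43, with the KO sample S5 inside the WT range. Without S5 it was -0.68 and passed, with an adjusted p of 0.0158.

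In the H3K27 group the demethylase Kdm6b was the 1 gene of 5 called by edgeR, and DESeq2 called Ezh1 as well. Kdm6b (JMJD3), which removes the Polycomb mark H3K27me3 and is induced by activation in many immune cells, stood at 180, 128, 139 and 110 CPM in WT and at 199, 289, 258 and 278 CPM in KO samples. S5 was the lowest KO sample and lay just above S1, the highest WT sample, while the other KO samples were far higher. The log2 fold change was 0.88 (SE 0.14, adjusted p = 0.000657, edgeR), the largest among the enzymes that passed. Ezh2, the catalytic subunit of Polycomb repressive complex 2 in dividing cells, measured 55.5, 55.6, 65.4 and 58.2 CPM in WT and 62.2, 68.3, 73.0 and 75.3 CPM in KO samples. Only S3 reached into the KO range, and the log2 fold change was 0.25 with an interval of 0.00 to 0.49 (adjusted p = 0.196, edgeR). Ezh1, its counterpart in resting cells, had 4 KO samples above 4 WT samples at 0.37 and an adjusted p of 0.0529 from edgeR. It passed 0.05 with DESeq2 (0.0308), with the edgeR likelihood ratio test (0.045), with GC content offsets (0.0361) and without S8 (0.0271). The shared subunits Eed and Suz12 gave 0.28 and -0.23.

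The H3K36 and H3K79 methyltransferases gave 4 positive changes and no call in edgeR or DESeq2, with 1 (Setd2) at an unadjusted p under 0.05 in edgeR. Dot1l, the only known writer of H3K79 methylation, measured 110, 97.8, 98.3 and 130 CPM in WT and 118, 117, 110 and 142 CPM in KO samples. These groups overlapped widely, with a log2 fold change of 0.16 and an interval of -0.09 to 0.41 (adjusted p = 0.442, edgeR). Setd2, which writes H3K36 trimethylation along transcribed genes, gave 0.23, Nsd2 gave 0.20, and Nsd1 gave 0.02 with an interval of -0.17 to 0.21. Both arginine methyltransferases had lower values in KO samples, with unadjusted p under 0.05 and no call in edgeR. Prmt5, which makes symmetric dimethylarginine on histones and splicing proteins, had 58.4, 46.2, 45.0 and 41.6 CPM in WT and 32.9, 36.45, 38.6 and 32.9 CPM in KO samples. All KO samples lay below all WT samples, and the log2 fold change was -0.44 (SE 0.14, adjusted p = 0.0538, edgeR). It passed 0.05 with upper quartile factors (0.0427), with DESeq2 (0.035) and with the edgeR likelihood ratio test (0.0406). Prmt1, the main asymmetric enzyme, gave -0.47 with S5 the lowest sample and an adjusted p of 0.166.

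The acetyltransferases held the smallest adjusted p of the 54 enzymes. Ep300, which encodes the acetyltransferase p300, a coactivator that acetylates H3K27 at enhancers, measured 294, 249, 268.5 and 258 CPM in WT samples and 429, 415, 419 and 410 CPM in KO samples. The KO samples were nearly level with one another and lay far above the WT samples. The log2 fold change was 0.65 (SE 0.09, adjusted p = 0.00011, edgeR), a 1.56-fold difference. Crebbp, which encodes the paralog CBP, measured 288, 247, 261 and 230 CPM in WT and 308, 334, 306 and 330 CPM in KO samples. S1 came close to the KO range, and the change was smaller, 0.32 on the log2 scale with an SE of 0.09 and an adjusted p of 0.0396 from edgeR. Whether the changes of the paralogs differ was not tested. Crebbp was at the edge of the threshold, and its adjusted p ran from 0.0163 to 0.123 when 1 sample was left out, missing 0.05 without S2 (0.118), S3 (0.0799), S4 (0.123), S6 (0.102), S7 (0.0629) or S8 (0.0761). With all samples it also missed 0.05 in edgeR with upper quartile factors (0.0571) and with library size alone (0.0715). Kat2b (PCAF) and Kat6a (MOZ) had KO samples above WT samples at 0.23 and 0.20 with no call, and Kat2a (GCN5) gave -0.45 (adjusted p = 0.133). The summed level of the 5 acetyltransferases ran from 88.8 to 103 RPKM in WT and from 111 to 118 in KO samples.

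Among the deacetylases, 2 rose and neither belongs to the classical nuclear class I. Sirt1, an NAD-dependent deacetylase of histones and transcription factors, stood at 65.6, 51.8, 50.3 and 55.7 CPM in WT and at 82.6, 98.7, 94.1 and 79.5 CPM in KO samples. The groups were well apart, with a log2 fold change of 0.67 (SE 0.12, adjusted p = 0.00163, edgeR). Hdac6, a mainly cytoplasmic deacetylase of tubulin, measured 16.7, 14.1, 14.1 and 19.9 CPM in WT and 34.8, 25.6, 30.0 and 27.4 CPM in KO samples. Every KO sample exceeded every WT sample, and the log2 fold change was 0.86 (SE 0.18, adjusted p = 0.00392, edgeR). Hdac3, the class I enzyme of the NCoR and SMRT corepressors, gave 42.8, 34.1, 32.5 and 36 CPM against 44.0, 45.3, 25.3 and 37.0 CPM. Its KO samples spanned the whole WT range, and the log2 fold change was 0.06 with an interval of -0.31 to 0.43 (adjusted p = 0.891, edgeR). Hdac7, a class IIa enzyme that is abundant in T cells, gave 169, 151, 155 and 174 CPM against 167, 114, 140 and 187 CPM. These also overlapped, at -0.09 with an interval of -0.37 to 0.19 (adjusted p = 0.746, edgeR). Hdac4, Hdac5, Hdac8 and Sirt6 did not pass, with log2 fold changes from -0.29 (Sirt6) to 0.46 (Hdac8).

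**Figure D2:**
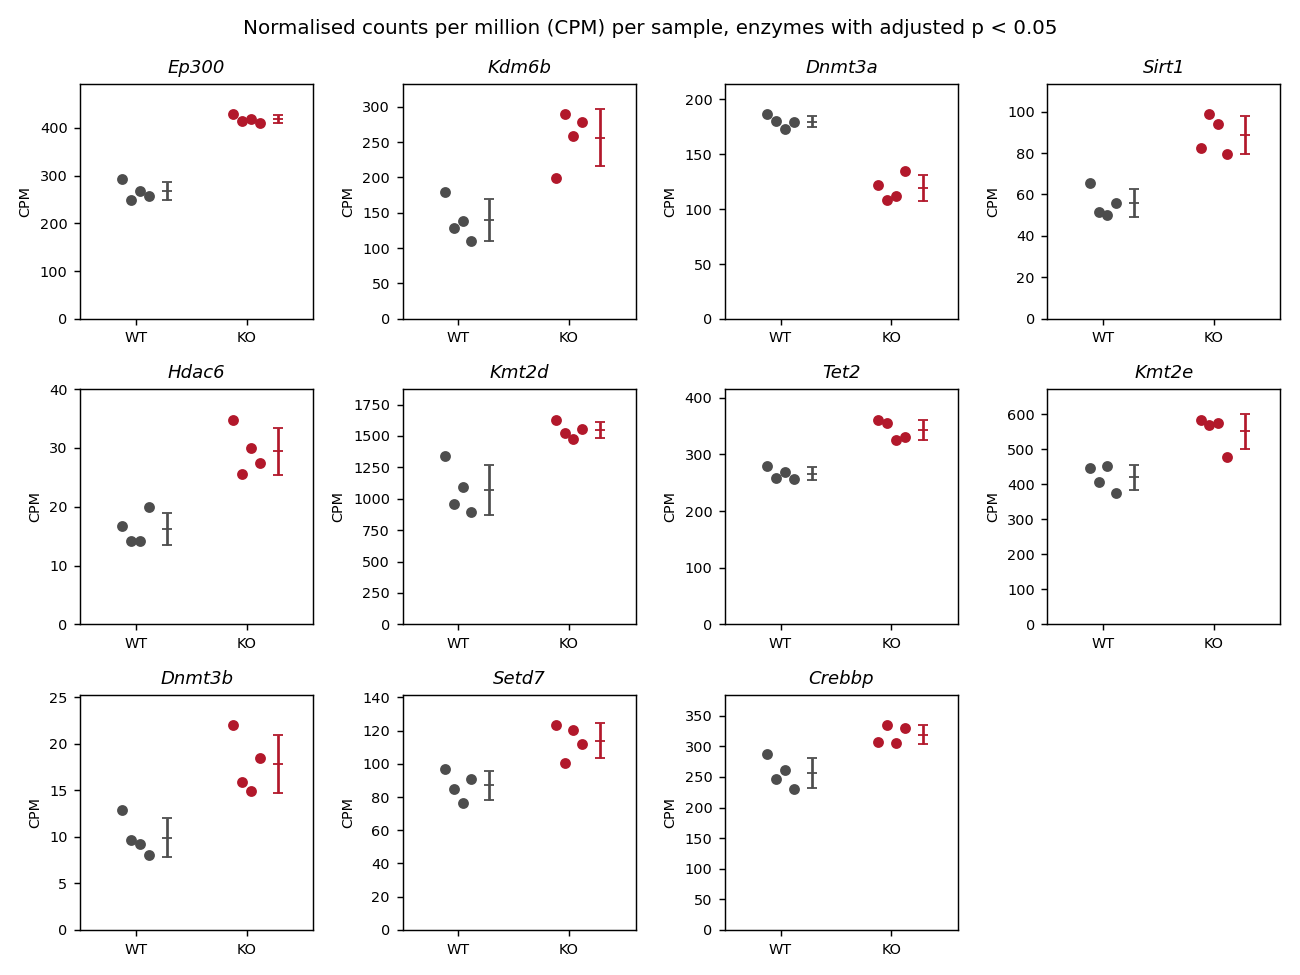
CPM in each sample (points; 4 WT, grey, and 4 KO, red) with the group mean and SD beside them, for the 11 enzymes with an adjusted p under 0.05, ordered by that p; each vertical axis starts at 0. In all 11 panels the groups do not overlap, and Dnmt3a is the panel in which KO samples lie below WT samples.

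DNA methylation enzymes moved in both directions. Dnmt3a, the main de novo DNA methyltransferase of T cells, stood at 186, 181, 173 and 179 CPM in WT and at 122, 109, 112 and 135 CPM in KO samples. The WT samples were nearly level, and all KO samples were lower. It fell by 0.59 on the log2 scale (SE 0.10, adjusted p = 0.000739, edgeR), or 1.51-fold, just past the study's fold threshold. It dropped under that fold without S1, S6 or S7 and with GC content offsets, a correction the study also made. With single samples left out, the log2 fold change stayed between -0.65 and -0.55 and the adjusted p was at most 0.00477. Dnmt3b, the second de novo enzyme, rose from a far lower level, from 12.8, 9.65, 9.22 and 8.0 CPM in WT to 22.0, 15.9, 14.9 and 18.4 CPM in KO samples. The highest WT sample lay just below the lowest KO sample, and the log2 fold change was 0.84 (SE 0.22, adjusted p = 0.0182, edgeR). It missed 0.05 without S2 (0.0561), S4 (0.0599) or S5 (0.0604). Per length, Dnmt3a stood at 10.8 ± 0.323 RPKM in WT and 7.17 ± 0.709 in KO samples, and Dnmt3b at 1.94 ± 0.405 and 3.49 ± 0.616 (SD, n = 4 each), so that Dnmt3a remained the more abundant in both groups. Dnmt1, which copies methylation after replication, measured 239, 232, 229 and 271 CPM in WT and 182, 227, 189 and 237 CPM in KO samples. The groups overlapped, at -0.22 with an interval of -0.45 to 0.01 (adjusted p = 0.219, edgeR), and its recruiter Uhrf1 gave -0.25 with no call.

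Of the TET enzymes, which oxidize 5-methylcytosine, Tet2 alone passed. Tet2 measured 280, 259, 270 and 257 CPM in WT and 361, 355, 325 and 331.5 CPM in KO samples. Both groups were tight and apart from each other, with a log2 fold change of 0.37 (SE 0.09, adjusted p = 0.0109, edgeR). Tet3 stood at a similar level per length (17.0 ± 0.741 RPKM in WT, 17.4 ± 1.18 in KO samples, SD, n = 4 each) and gave 0.04, with an interval of -0.15 to 0.23. Tet1 had the largest estimate of all 54 enzymes, 1.32, but a wide interval of 0.29 to 2.35 and an adjusted p of 0.0938. It was scarce, at 1.80 to 4.12 CPM in WT samples and 3.09, 4.53, 6.09 and 15.0 CPM in KO samples, with S8 far above the rest. Its log2 fold change was 0.66 without S8 (adjusted p = 0.491, edgeR) and 1.58 without S5, where it passed (0.0408).

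**Figure D3:**
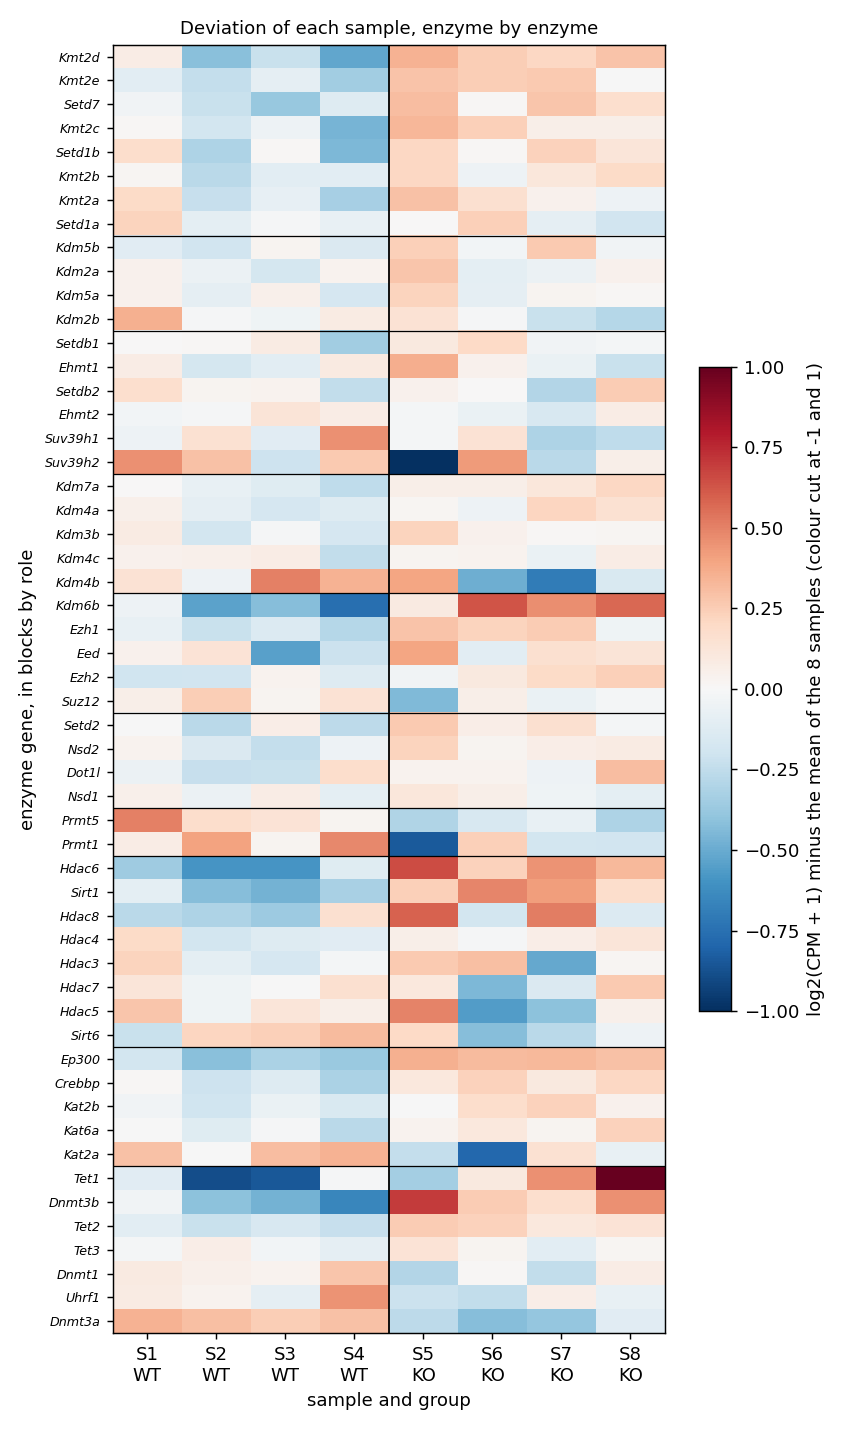
Log2(CPM + 1) of each enzyme minus its mean over the 8 samples, with samples in columns (WT left, KO right) and enzymes in blocks by role, red above and blue below the mean, with colours cut at -1 and 1. The rows of Ep300, Sirt1 and Hdac6 turn from blue to red between the groups and that of Dnmt3a from red to blue, while S1 and S5 are the reddest columns of their groups in many rows.

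The 119 other chromatin genes, from the same pathways but outside the 55, were read from the same fit. Of 117 tested, 8 were higher and 2 lower at an adjusted p under 0.05, beside 6.31% and 4.98% of all genes, so that the share higher was near that of all genes, and the median log2 fold change was -0.05. Under the study's rule 1 fell and none rose. Nsd3, an H3K36 methyltransferase of the NSD family, rose from 442 ± 52.8 to 631 ± 21.5 CPM (SD, n = 4 each), a log2 fold change of 0.51 (adjusted p = 0.002, edgeR). Jmjd1c, a relative of the H3K9 demethylases, rose by 0.44 on the log2 scale (adjusted p = 0.00662, edgeR), and Prdm2, a PR domain protein, by 0.50 (adjusted p = 0.0124, edgeR). Smyd2, a methyltransferase of histones and p53, measured 9.01, 7.03, 9.22 and 12.7 CPM in WT and 2.82, 1.29, 2.25 and 2.18 CPM in KO samples. It fell by 2.14 on the log2 scale (SE 0.35, adjusted p = 0.00071, edgeR). Hdac11, the class IV deacetylase, was the other that fell (adjusted p = 0.0138, edgeR), with 62, 19, 45 and 14 counts in WT samples, 8 in S8 and 0 in the other KO samples. Kdm4d had an adjusted p of 0.0559. None of the 11 COMPASS subunits tested, which partner the H3K4 methyltransferases, and none of the 5 HDAC3 corepressor subunits passed in edgeR or DESeq2. At an unadjusted p under 0.05 in edgeR, met by at least 11.3% of all genes, 2 COMPASS subunits (Wdr5 and Dpy30) were lower and 0 corepressor subunits differed. Among 23 other Polycomb subunits, Cbx7 was the 1 with an adjusted p under 0.05, higher by 0.52 on the log2 scale. The other higher genes were Atf7ip, Mphosph8 and Wiz, of the H3K9 readers and partners, and the demethylase Kdm3a. Cbx7, these 4 genes, Wdr5, Dpy30 and Hdac11 were picked for naming after their values were seen.

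Many of these enzymes are long genes, and gene length moved with the comparison. Their median summed exon length was 7778 bases against 3589 over all genes tested. Among all genes with exons up to 6000 bases the median log2 fold change was -0.05, with 4.4% higher and 4.96% lower at an adjusted p under 0.05. Among those over 6000 bases it was 0.06, with 12.1% higher and 5.07% lower. The 20 shorter enzymes had a median of -0.04 and 3 calls, all higher (Sirt1, Hdac6 and Dnmt3b). The 34 longer enzymes had a median of 0.21, with 7 higher and 1 lower. For exons over 12000 bases, where 18.5% of all genes were higher, 4 of 17 enzymes were. The 51 longer genes of the other chromatin list, by comparison, had a median of 0.01 and 7 higher. With offsets for GC content and exon length, an alternative added after seeing the data, 8 enzymes were higher at an adjusted p under 0.05, since Tet2 (0.0551), Setd7 (0.0653) and Crebbp (0.0665) no longer passed and Ezh1 (0.0403) did. The 4 that rose under the study's rule still met it and Dnmt3a, now at -0.65, did so too.

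**Figure D4:**
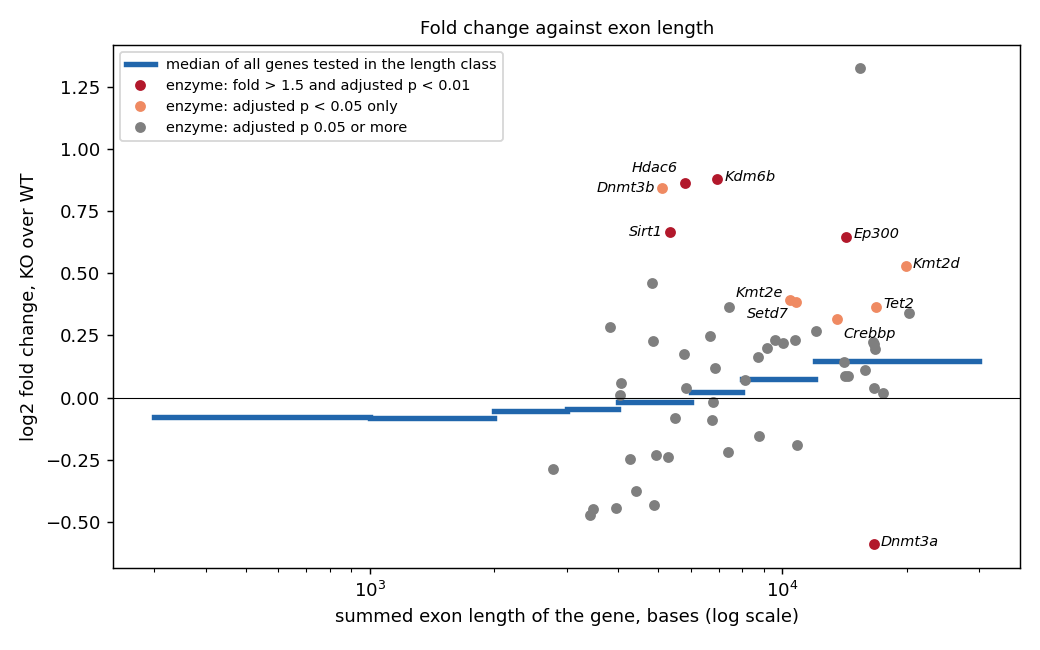
Log2 fold change, KO over WT, of the 54 enzymes (points, coloured by call) against summed exon length on a log scale, with the median of all genes tested in each length class (blue bars; the first and the last class are open and drawn to a fixed end). The bars climb from -0.08 under 1000 bases to 0.15 over 12000 bases, and Sirt1, Hdac6, Dnmt3b, Kdm6b and Ep300 lie well above them and Dnmt3a well below.

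The enzymes were also steadier between replicates than most genes. The median within-group SD of log2 CPM was 0.165 over the 54 enzymes and 0.334 over all genes. It was 0.245 over the 10827 genes between the lowest and the highest mean level of the enzymes, of which 7.88% were higher and 5.41% lower. That set is not matched for level, since its median log2 CPM was 4.77 against 6.61 for the enzymes. The part of level in the lower SD of the enzymes was not tested. S1 was the highest WT sample for 29 of 54 enzymes and S5 the highest KO sample for 25. The same samples had the largest long minus short gene difference of their groups, 0.01 in S1 and 0.15 in S5 on the log2 scale. That difference was lowest in the WT samples S4 (-0.23) and S2 (-0.22). In S1 it lay above the KO samples S7 (-0.02) and S8 (-0.05), so the groups overlapped. The summed level of all 55 enzymes was 798 ± 46.1 RPKM in WT and 896 ± 20.2 RPKM in KO samples (SD, n = 4 each), and S1, at 864, was nearest to the KO range of 874 to 923. Ep300 and Kdm6b met the study's rule with any 1 sample left out. Hdac6 missed its p of 0.01 without S2 (0.0197), S3 (0.0152), S5 (0.0139) or S7 (0.0128) and Sirt1 without S2 (0.0103), while Kmt2d (0.000281) and Dnmt3b (0.00998) joined them without S1. At an adjusted p under 0.05, 6 enzymes were higher without S2.

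The lower myeloid marker level of the KO samples did not overlap between the groups, so that a fit with that level as a covariate had little left to tell the groups apart. In it 29 of all genes were higher and 2 lower under the study's rule, and no enzyme passed at 0.05. The estimates of Ep300 (0.62), Sirt1 (0.51), Hdac6 (0.66), Kdm6b (0.63) and Kmt2d (0.42) kept their sign there, as did Dnmt3a (-0.83), while Setd7 went to -0.03. With the proliferation marker level as a covariate, 6 enzymes were higher at an adjusted p under 0.05, with 3 of them under the study's rule, and Dnmt3a was lower with an adjusted p of 0.00244. The part of the higher CD4+ and regulatory T cell markers, from whichever cells, was not tested.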

How the data were processed

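RNA of 10000 to 20000 sorted cells per sample was sequenced in read pairs of 43 and 42 bases per the study's methods (75 bases in its design text). The authors aligned reads to GRCm38 (mm10) with STAR and deposited raw counts per gene from featureCounts; the strand setting is not given in the sources used here. The submitters' processing notes also name DESeq2. The 8 samples held 11657807 to 30295406 counts, and the floor of 3 counts covers counting error only.

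Counts were tested with edgeR 4.0.16 (R 4.3.3): filterByExpr (minimum count 10), TMM factors, glmQLFit and glmQLFTest for 4 KO against 4 WT samples, and Benjamini-Hochberg adjustment over all 15378 genes tested, two-sided. CPM used TMM library sizes. SE was derived from the F statistic. RPKM divided CPM by exon-union length from GENCODE release 21 of mouse on the same build, which matched 55154 of 55335 gene IDs. An exact two-sided permutation test over the 70 arrangements of samples cannot go below 0.0286 and gave that value for each enzyme whose groups did not overlap. Alternatives were DESeq2 1.42.0, other scalings and filters, GC offsets (mgcv 1.9.3), marker covariates and each sample left out.

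The 55 enzymes, the other chromatin genes and the marker lists were chosen with earlier results of these data known. Values in every sample are given for enzymes with an adjusted p under 0.05 and for 12 well-known enzymes whatever their result; of the other chromatin genes, those that met the study's rule, otherwise the 3 with the smallest adjusted p in a direction, are named. Of the smaller marker lists, 0 of 2 B cell, 0 of 1 epithelial, 1 of 2 NK cell, 1 of 2 fibroblast and endothelial, and 0 of 4 sex markers tested were higher, and none was lower (edgeR). The fibroblast and endothelial marker was Pecam1 (mean 22.9 CPM in WT, 63.7 CPM in KO samples), and no other gene of that list exceeded 3.59 CPM. The Y-linked Ddx3y ran from 73.2 to 160 CPM over all samples and Xist reached at most 1.55 CPM, as in male cells. The study's methods name both sexes for this tumor model. Replicate pairs of a group differed by more than sampling noise (median chi-square per gene 5.07 to 8.29 against 0.455). The study's methods treat each sample (1 KO mouse, or a pool of 2 WT mice) as a biological replicate.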

Additional observations from a re-analysis of the deposited data

Results flagged for a closer look

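In 4 of 108 groups of 4 samples (54 enzymes in both groups), 1 sample stood apart from the other 3 by Dixon's criterion on log2 CPM, where chance alone would give about 1 in 20 groups, or 5.4. For Kmt2e the KO sample S8 was lowest, with 8.90 where S5 to S7 had 9.15 to 9.19, a gap of 0.866 of the group's range. For Kdm3b, an H3K9 demethylase, the KO sample S5 was highest, at 7.57 against 7.36 to 7.40 (gap 0.846). For Kdm4c, another H3K9 demethylase, the WT sample S4 was lowest, at 5.71 against 6.00 to 6.03 (gap 0.909). For Kat2a the WT sample S2 was lowest, at 5.08 against 5.38 to 5.44 (gap 0.854). The samples concerned differed from gene to gene.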

How the results depend on the processing

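Of 20 alternatives, none reversed a count or the direction of Kdm1a. No paired analysis was possible because the columns of the table carry no replicate number. Leaving out 1 sample at a time, all genes that rose under the study's rule numbered 347 to 452 and those that fell 199 (without S2) to 303; enzymes that rose numbered 2 to 6 and those that fell 0 to 1; at an adjusted p under 0.05, enzymes numbered 6 to 11 higher and 1 to 2 lower, and other chromatin genes 3 to 8 higher and 1 to 5 lower. The median log2 fold change of the enzymes ran from 0.127 to 0.202 and that of Kdm1a from -0.616 to -0.463, with its adjusted p at 0.0578 without S2. With the myeloid covariate, 29 of all genes rose and 2 fell under the study's rule, 0 enzymes and 0 other chromatin genes passed either way, and Kdm1a stood at -0.863 (adjusted p = 0.462). With the proliferation covariate, 289 of all genes rose and 173 fell, 6 enzymes and 4 other chromatin genes were higher at 0.05, the enzymes' median was 0.065, and Kdm1a stood at -0.48 (adjusted p = 0.0833). Without a filter on low counts 531 of all genes fell, and 481 by the likelihood ratio test. At 0.05, 2 enzymes were lower (Dnmt3a among them) with upper quartile factors, without the filter, with DESeq2 and by the likelihood ratio test. With GC offsets 0 enzymes fell under the study's rule, since Dnmt3a missed its fold. Of other chromatin genes, 5 were higher with library size alone, 1 was lower with at least 1 CPM in 4 samples, and 4 were lower with GC and length offsets, added after seeing the data. The causes of these shifts were not tested.

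Log2 fold changes that turned sign were small or uncalled in nearly all cases, Setd7 being the one that had passed 0.05: Setdb2 -0.01, Nsd1 -0.003 with upper quartile factors; Setdb2 -0.011, Nsd1 -0.002 with library size alone; Setd1a 0.013, Setdb2 -0.022 with GC offsets; Setd1a 0.153, Setd7 -0.032, Kdm2a -0.096, Setdb2 -0.092, Ehmt2 0.062, Kdm4a -0.215, Kdm4b 0.261, Eed -0.501, Nsd2 -0.035, Dot1l -0.093, Hdac4 -0.182, Tet1 -1.025 with the myeloid covariate; Kdm5a -0.037, Setdb2 -0.091, Ehmt1 -0.002, Kdm4c -0.029, Nsd1 -0.038 with the proliferation covariate; and Kdm5a -0.021, Setdb2 -0.005, Nsd1 -0.083, Tet3 -0.038 with GC and length offsets. Leaving single samples out, log2 fold changes crossed 0 within -0.108 to 0.063 for Setd1a, -0.08 to 0.105 for Setdb2, -0.056 to 0.154 for Ehmt1, -0.033 to 0.066 for Kdm4c, -0.014 to 0.055 for Nsd1, -0.034 to 0.209 for Hdac3 and -0.204 to 0.027 for Hdac7. Depth limits the scarce genes: Hdac9 did not pass the count filter for testing, and the mean of at least 1 group was under 10 CPM for Tet1, Suv39h2, Hdac8 and Dnmt3b.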
